A study of Mus musculus with 7 samples.

Results

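The translation elongation factors of differentiating C2C12 cells were followed in the RNA-Seq of lnc-SMaRT depletion and in the RNA recovered with lnc-SMaRT. Members were the rows of the expression table that name Eef1a1, Eef1a2, Eef1b2, Eef1d, Eef1e1, Eef1g, Eef2 or Eef2k. Rows were found for 7 of these 8 genes, out of 11642 rows in all, and no row analysed here names Eef1a2, so the ratio between the Eef1a isoforms and any switch between them is not analysed here. C2C12 is a mouse myoblast line that forms myotubes in low serum. Cells of 2 si-SCR samples had received a scramble siRNA and cells of 2 si-SMaRT samples siRNA #1 against lnc-SMaRT, a muscle long non-coding RNA, and all 4 were collected on day 2 of differentiation. The cells carried no other agent or allele that the labels name, and both groups come from the same line. The pull-down of native RNA on biotinylated probes gave 1 library each for lnc-SMaRT (probe set #1), for LacZ as the control probes and for the input, and the peak lists of the lnc-SMaRT and LacZ libraries were used here. Of the 345 lnc-SMaRT peaks, 5 lay on elongation factor genes.

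In each cycle of elongation, eEF1A bound to GTP brings the aminoacyl-tRNA to the ribosome and leaves as eEF1A bound to GDP. The eEF1B complex then exchanges GDP for GTP: Eef1b2 and Eef1d encode its exchange factors, and Eef1g encodes a structural subunit. Eef2 encodes the GTPase that moves the ribosome to the next codon, and Eef2k encodes the kinase that inhibits it by phosphorylation. Eef1e1 encodes a small protein of the complex that holds several aminoacyl-tRNA synthetases. Skeletal muscle and neurons are known to replace Eef1a1 by Eef1a2 as they mature.

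The effective library sizes worked out from the table were between 11291256 and 14312935 reads per sample. The identity of the culture was read from marker genes. Of 10 myoblast and myotube markers, 9 had a row, and Myog, the myogenic factor myogenin, stood at 1015 and 1114 RPKM in the si-SCR samples and at 923 and 639.8 RPKM in the si-SMaRT samples, replicate 1 first. None of 4 neuron, 3 endothelium and 3 adipocyte markers had a row, and of 3 leukocyte markers Cd68 did, with 0.788 to 1.13 RPKM. No row names lnc-SMaRT itself (Gm14635), so its depletion was not checked in these values. Values of si-SMaRT 1 and si-SMaRT 2 differed from each other in step with the GC content of genes. By the paper's read numbers, si-SMaRT 1 lost a far larger share of read pairs to rRNA and tRNA filtering than any other RNA-Seq sample. Whether this bears on the difference was not tested.

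The 5 peaks on elongation factor genes are printed here because they are the only peaks of the lnc-SMaRT list on this gene family. The paper counted a transcript as bound only where its exons overlapped lnc-SMaRT peaks called against the input and against LacZ. Its exons also had to be free of LacZ peaks called against the input. That selection was not repeated here, so a peak alone is not read as binding. Positions are on GRCm38, sequences come from the RefSeq copy of that build, and each is written 5′ to 3′ on the strand of its gene, with exon bases of the first annotated transcript of the gene (Eef1a1-201, Eef1g-201 or Eef2-201) in capitals and intron bases in lower case.
Eef1a1, exon 6, chr9:78479201-78479400, minus strand: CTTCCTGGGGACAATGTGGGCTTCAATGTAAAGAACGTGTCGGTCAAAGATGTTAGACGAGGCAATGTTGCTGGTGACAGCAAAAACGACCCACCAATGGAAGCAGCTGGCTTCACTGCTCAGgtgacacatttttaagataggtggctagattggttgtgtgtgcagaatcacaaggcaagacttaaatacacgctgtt
Eef1a1, exon 4, chr9:78480001-78480200, minus strand: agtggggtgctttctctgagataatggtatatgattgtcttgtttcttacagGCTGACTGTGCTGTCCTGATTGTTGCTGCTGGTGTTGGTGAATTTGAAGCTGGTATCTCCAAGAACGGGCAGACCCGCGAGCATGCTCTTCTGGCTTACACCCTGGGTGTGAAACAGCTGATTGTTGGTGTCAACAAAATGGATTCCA
Eef1g, exon 9, chr19:8977601-8977800, plus strand: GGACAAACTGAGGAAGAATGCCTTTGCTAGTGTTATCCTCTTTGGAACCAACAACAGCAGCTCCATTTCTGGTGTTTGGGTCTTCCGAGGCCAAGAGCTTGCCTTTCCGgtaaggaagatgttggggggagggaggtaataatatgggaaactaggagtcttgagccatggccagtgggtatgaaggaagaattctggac
Eef2, exon 2, chr10:81177801-81178000, plus strand: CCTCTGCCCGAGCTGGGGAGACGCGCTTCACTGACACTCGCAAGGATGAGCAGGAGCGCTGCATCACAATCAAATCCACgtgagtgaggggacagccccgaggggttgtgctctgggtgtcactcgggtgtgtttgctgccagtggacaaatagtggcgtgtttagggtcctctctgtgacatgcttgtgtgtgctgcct
Eef2, exon 13, chr10:81181601-81181800, plus strand: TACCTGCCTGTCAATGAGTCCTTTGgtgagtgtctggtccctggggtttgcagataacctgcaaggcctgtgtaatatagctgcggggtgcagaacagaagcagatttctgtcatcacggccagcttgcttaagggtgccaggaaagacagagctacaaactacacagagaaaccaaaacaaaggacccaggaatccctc

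Eef1a1 and Eef2 carried 2 lnc-SMaRT peaks each and Eef1g carried 1. The first Eef1a1 peak (chr9:78480001-78480200, minus strand) covered 148 coding bases of exon 4 of 8 with 52 intron bases before them, and the second (chr9:78479201-78479400) covered 123 coding bases of exon 6 with 77 intron bases after them. The Eef1g peak (chr19:8977601-8977800, plus strand) held 109 coding bases at the end of exon 9 of 10. The Eef2 peaks held 79 coding bases of exon 2 (chr10:81177801-81178000, plus strand) and 25 coding bases of exon 13 of 14 (chr10:81181601-81181800). Every one of the 5 was a single bin of 200 bases on a border between a coding exon and an intron of its transcript. Counting the exons of every annotated transcript of the genes in the table, 3 of the 5 still held bases outside them, beside 65.0% of the 80 other 200-base peaks that touch an exon. These others leave out the peaks on exons of Ttn, the titin gene, which holds 200 of the 345 peaks, as do the other peaks of the following paragraphs.

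**Figure D1:**
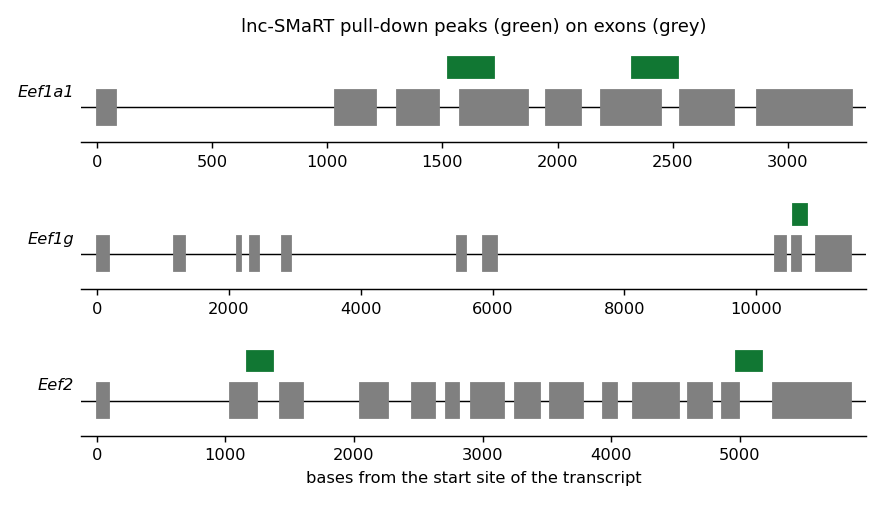
Positions of the 5 lnc-SMaRT pull-down peaks (green) on the exons (grey boxes) of Eef1a1, Eef1g and Eef2, as bases from the start site of the first transcript, 5′ end on the left. Eef1a1 and Eef2 hold 2 peaks each and Eef1g holds 1, and each peak reaches from an exon into an intron.

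The p-values that the authors' peak caller gave these peaks lay above the median of the list. They were 0.00195 and 0.00293 on Eef1a1, 0.00354 on Eef1g, and 0.00449 and 0.00764 on Eef2, against a median of 0.00101 over all 345 peaks and of 0.00129 over the 145 that are not on Ttn. In the order of p-values the 5 held ranks 211, 240, 255, 281 and 321 of the 345 and ranks 87, 100, 103, 112 and 130 of the 145. None of the 336 LacZ peaks lay on an elongation factor gene, so 0 of the 5 peaks overlapped a LacZ peak, by any overlap on either strand. On the same strand, 44.1% of the 345 peaks and 23.4% of the 145 not on Ttn overlapped a LacZ peak, and 0.353% of the 11058 row names with annotated exons had a LacZ peak on an exon. No peak lay on Eef1a2, Eef1b2, Eef1d, Eef1e1 or Eef2k. With 1 library per pull-down there is no replicate check, and no test was made. By the paper's read numbers, removal of duplicate and multi-mapped reads left only a small part of the lnc-SMaRT and LacZ reads. Both libraries then held far fewer reads than the input.

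The 3 genes with a peak are among the most abundant of the table, Eef1a1 with a mean RPKM above that of 99.9% of rows, Eef2 above 99.7% and Eef1g above 98.8%. Of 11058 row names with annotated exons, 0.588% had a lnc-SMaRT peak on an exon. Among the 178 with a mean of at least 300 RPKM in si-SCR, 16.9% had one. That limit, chosen after the values were seen, takes in 4 elongation factor genes, of which Eef1a1, Eef2 and Eef1g had a peak and Eef1b2, at 316 RPKM, had none.

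The sequences printed above were read for complementarity to the probes and for runs of G. The longest run of bases that could pair fully with any of the 6 probes of set #1 was 6 bases in both Eef1a1 peaks and in the Eef2 peak of exon 13, 7 in the Eef2 peak of exon 2 and 8 in the Eef1g peak, where the median of 104 other 200-base peaks was 7 and their longest run was 20. The letters GGG, counted on the strand of the gene without overlap, occurred 6 times in the Eef1g peak and in the Eef2 peak of exon 2, 3 times in the Eef2 peak of exon 13, and 3 and 2 times in the Eef1a1 peaks of exons 4 and 6. At least 4 were found in 27.9% and at least 1 in 89.4% of the 104 other peaks. These counts take in exon and intron bases alike. Most GGG in the Eef1g peak and in the Eef2 peak of exon 2 lay in intron bases, as did all in the Eef2 peak of exon 13. In the Eef1a1 peaks most (exon 4) or all (exon 6) lay in exon bases. The other peaks were not split in this way. GC content was 46.5% and 47.5% in the Eef1a1 peaks of exons 6 and 4, 49.0% in the Eef1g peak, and 58.5% and 50.5% in the Eef2 peaks of exons 2 and 13, beside a median of 49.5% in the others.

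Copies elsewhere in the genome bear on which of these peaks can be placed. Of the 169 words of 32 bases in each peak, 56.8% and 71.0% in the Eef1a1 peaks of exons 6 and 4 and 46.2% in the Eef1g peak also occurred outside the gene, and 0 in both Eef2 peaks. The authors removed reads that map to several places before calling peaks. Eef1a1 is known for its many processed pseudogenes, and the same count over its 1794-base transcript found 86.2% of words elsewhere, with 18 windows of 5000 bases that hold at least 100 of them. The share was 72.3% for Eef1g (7 windows), 39.7% for Eef1d (1 window), 27.9% for Eef2 (3 windows), 1.74% for Eef2k and 0 for Eef1e1, and for Eef1b2 it was 162 of 771 words (1 window). RPKM values of Eef1a1 and Eef1g are therefore uncertain to the extent that reads were shared between a gene and its copies.

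The 7 protein-coding genes lie on 7 chromosomes. On GRCm38 with the GENCODE M21 annotation, Eef1a1 (chr9:78478449-78489151), Eef1d (chr15:75894205-75909556) and Eef1e1 (chr13:38644207-38659058) are on the minus strand. Eef2 (chr10:81176631-81182498), Eef1g (chr19:8967041-8978479), Eef1b2 (chr1:63176825-63180486) and Eef2k (chr7:120842831-120907450) are on the plus strand.

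In the RNA-Seq, Eef1a1 was the most abundant of the family and among the most abundant mRNAs of the cells. Its level in RPKM, reads scaled to gene length and library size, was 4106 and 3773 for the si-SCR replicates 1 and 2 and 3713 and 4079 for the si-SMaRT replicates 1 and 2, on a row shared with Gm26377, an annotated miRNA gene inside Eef1a1. The groups overlapped, with 1 si-SMaRT value below both si-SCR values and the other between them. It held rank 7 of all rows in both si-SCR samples and ranks 6 and 4 in si-SMaRT 1 and 2. The mean was 3939 ± 235 RPKM (SD, n = 2) in si-SCR and 3896 ± 258 RPKM (SD, n = 2) in si-SMaRT.

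Eef2, the translocation factor, came next. It stood at 1021 and 1198 RPKM in si-SCR 1 and 2 and at 1336 and 731 RPKM in si-SMaRT 1 and 2. The si-SMaRT samples held both the highest and the lowest value of the 4, and the means were 1109.6 ± 125 RPKM (SD, n = 2) and 1033 ± 428 RPKM (SD, n = 2). The ratio of si-SMaRT 2 to si-SMaRT 1 was 0.547, the lowest of any member.

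The subunits of the eEF1B complex followed. Eef1g was at 344 and 383 RPKM in si-SCR and at 409 and 340.5 RPKM in si-SMaRT, replicate 1 first. Eef1b2, on a row shared with the RNA gene Gm27390 inside it, was at 335 and 297 RPKM in si-SCR and at 260.2 and 293 RPKM in si-SMaRT, so that both si-SMaRT values were below both si-SCR values. Eef1d was at 66.4 and 65.2 RPKM in si-SCR and at 62.5 and 52.2 RPKM in si-SMaRT, again with both si-SMaRT values lower.

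Eef1e1 and Eef2k were the least abundant. Eef1e1 was at 52.8 and 41.5 RPKM in si-SCR and at 38.0 and 65.3 RPKM in si-SMaRT, so the si-SMaRT samples enclosed the si-SCR samples, and its values overlapped those of Eef1d. Eef2k was at 2.25 and 3.24 RPKM in si-SCR and at 4.49 and 3.38 RPKM in si-SMaRT, with both si-SMaRT values above both si-SCR values. The other neighbours in the order Eef1a1, Eef2, Eef1g, Eef1b2, Eef1d, Eef1e1 and Eef2k had values that did not overlap across the 4 samples. The closest of them were Eef1g and Eef1b2, whose ratio ran from 1.03 (si-SCR 1) to 1.57 (si-SMaRT 1).

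**Figure D2:**
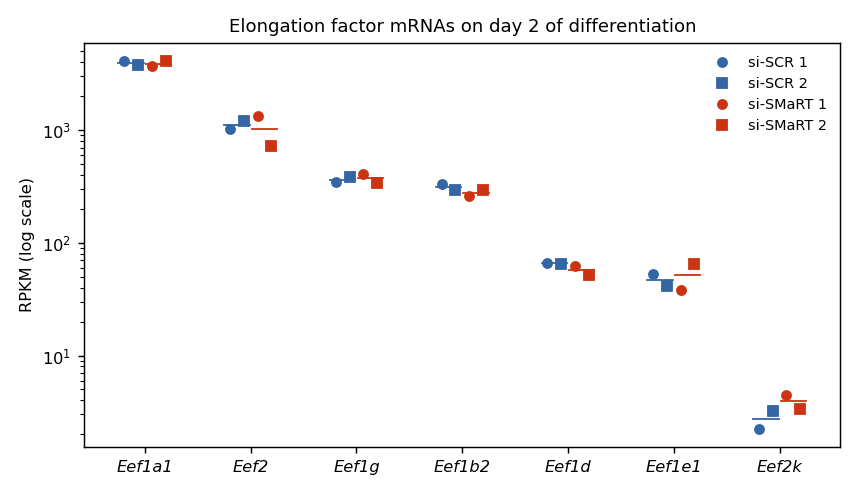
RPKM on a log axis of the 7 elongation factor genes with a row, in si-SCR (blue) and si-SMaRT (red), with circles for replicate 1, squares for replicate 2 and a bar at each group's mean. The si-SCR mean falls from 3939 RPKM for Eef1a1 to 2.74 for Eef2k, and the red squares of Eef2 and Eef1e1 lie apart from the red circles.

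Part of this order rests on the length by which reads were divided. The values of Eef1d gave whole numbers of reads with a length of 5897 bases or a multiple of it, while its first transcript in the annotation (Eef1d-201) has 824 bases, and those of Eef1b2 with 2532 bases beside a transcript of 802 bases. For Eef1a1 and Eef1g these lengths were 2493 and 2600 bases beside transcripts of 1794 and 1864, and for Eef2 3098 beside 3089. Rescaled to the first transcript, the mean of si-SCR was 5474 RPKM for Eef1a1, 1113 for Eef2, 997 for Eef1b2, 507 for Eef1g and 471 for Eef1d. This assumes that all reads of a gene come from that transcript, which was not tested. Reads from exons outside it would make these values too high, above all for Eef1d and Eef1b2. For Eef1e1 the smallest length that gives whole reads was 1032 bases beside a transcript of 2553, which would put its si-SCR mean at 19.1 RPKM or a multiple of that, so its overlap with Eef1d was not seen on this scale at that length. On this scale the values of Eef2 and Eef1b2 overlapped. The deposited values put Eef1g at 5.53 ± 0.480 (SD, n = 2) times Eef1d in si-SCR, while the rescaled ones were 507 ± 37.7 and 471 ± 5.87 RPKM (SD, n = 2). Differences between samples in 1 gene are not touched by the length.

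**Figure D3:**
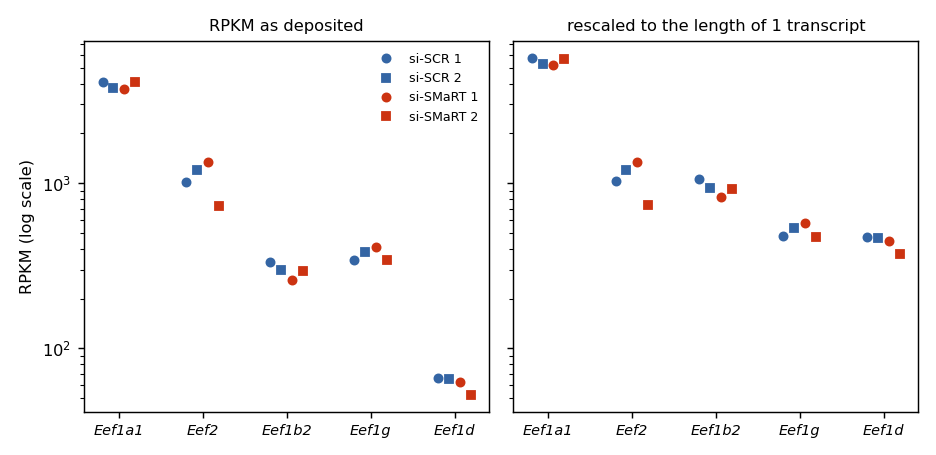
RPKM on a log axis of Eef1a1, Eef2 and the eEF1B subunits in the 4 samples, as deposited (left) and rescaled to the length of the first annotated transcript as if all reads came from it (right), with si-SCR in blue, si-SMaRT in red, circles for replicate 1 and squares for replicate 2. Eef1d lies near 65.8 RPKM on the left and near 471 on the right in si-SCR, while Eef1a1 is highest on both sides.

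The comparison of si-SMaRT with si-SCR asked whether depletion of lnc-SMaRT changed these mRNAs. None of the 7 elongation factor genes passed the test (limma on log2(RPKM + 0.1), adjusted over all 11086 genes with a mean of at least 0.5 RPKM, threshold 0.05), and 0 of them had an unadjusted p under 0.05. In the same comparison 56 genes passed, 20 higher and 36 lower in si-SMaRT, or 0.505% of those tested. That number was 24 without si-SCR 1, 30 without si-SCR 2, 2908 without si-SMaRT 1 and 941 without si-SMaRT 2, with 0 elongation factor genes in each, and voom on recovered reads also called 0 of the 7. The median log2 fold change was -0.02 over the 7 genes and 0.02 over all genes tested. Less RNA per cell and fewer cells of a type cannot be told apart in such bulk samples. The paper describes the replicates as independent populations of the line, which is 1 line, so p-values measure the spread between these cultures.

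For Eef1a1 the log2 fold change was -0.02 ± 0.32 (SE), with a 95% interval from -0.69 to 0.66 and an adjusted p of 0.992 by limma. On a linear scale that interval runs from 0.621 to 1.58 times the si-SCR level. Quantile normalization between samples turned the log2 fold change to 0.48, with an unadjusted p of 0.00789 and an adjusted p of 0.321 by limma, and that of Eef2 to 0.12. For Eef2 it was -0.16 ± 0.33 (SE), from -0.85 to 0.53 (adjusted p = 0.929 by limma). For both, the difference between the groups was smaller than that between the 2 si-SMaRT samples.

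Of the eEF1B genes, Eef1d had a log2 fold change of -0.20 (interval from -0.76 to 0.35), Eef1b2 of -0.19 (from -0.76 to 0.39) and Eef1g of 0.04 (from -0.54 to 0.63). Their adjusted p-values by limma were 0.878, 0.893 and 0.982. Eef1e1 had a log2 fold change of 0.09 (from -0.54 to 0.72, adjusted p = 0.961 by limma). The groups did not overlap for Eef1b2 and Eef1d, which were lower in si-SMaRT, nor for Eef2k, which was higher, making 3 of 7 genes (42.9%) where the same was seen in 40.7% of all genes tested.

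Eef2k, the kinase that inhibits eEF2, had the largest difference of the 7. Its mean was 2.74 ± 0.699 RPKM (SD, n = 2) in si-SCR and 3.93 ± 0.780 RPKM (SD, n = 2) in si-SMaRT. The log2 fold change was 0.51 ± 0.31 (SE) with a 95% interval from -0.13 to 1.16 (adjusted p = 0.660 by limma). It is also the gene with the fewest reads, at least 204 and 328 in si-SCR and 363 and 347 in si-SMaRT. The exact Poisson 95% intervals of the nearest pair, si-SCR 2 (294 to 365 reads) and si-SMaRT 2 (312 to 385 reads), overlapped, and these cover counting error only. Without si-SMaRT 2 the log2 fold change was 0.71 and the adjusted p 0.0511 by limma, and without si-SCR 1 they were 0.26 and 1.00.

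**Figure D4:**
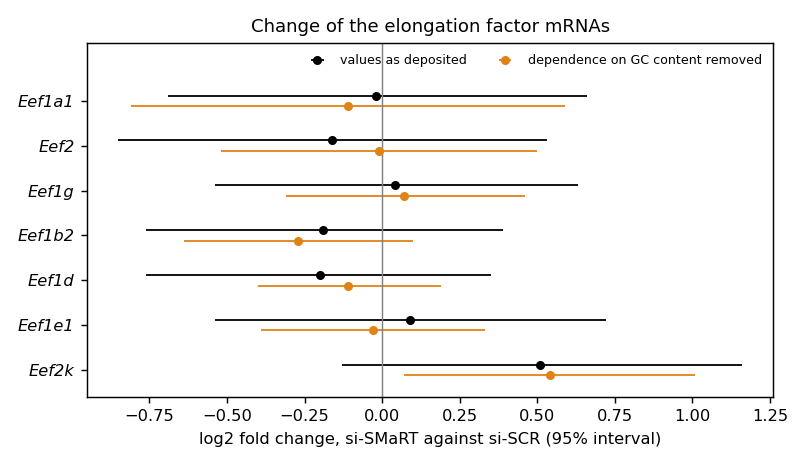
Log2 fold change of si-SMaRT against si-SCR with its 95% interval from limma for the 7 elongation factor genes, for the values as deposited (black) and after each sample was freed of its trend with GC content (orange). All black intervals cross 0, and of the orange ones that of Eef2k (0.07 to 1.01) does not, at an adjusted p of 0.160.

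Ratios of members within a sample do not depend on the scaling between samples. Eef1a1 exceeded Eef1b2 by 12.3 and 12.7 times in si-SCR and by 14.3 and 13.9 times in si-SMaRT, so the groups did not overlap. Eef1g exceeded Eef1d by 5.19 and 5.87 times in si-SCR and by 6.55 and 6.53 times in si-SMaRT, also without overlap. For both, a two-sided exact permutation test over the 4 samples gave p = 0.333, the smallest that 2 against 2 samples allow. Eef1a1 exceeded Eef2 by 4.02 and 3.15 times in si-SCR and by 2.78 and 5.58 times in si-SMaRT, with p = 1.00 in the same exact permutation test, the values of si-SMaRT enclosing those of si-SCR. The other 3 ratios tried, Eef1a1 to Eef1g, Eef1g to Eef1b2 and Eef1b2 to Eef1d, overlapped between the groups (exact permutation p from 0.667 to 1.00), and no ratio of the 6 could reach 0.05.

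Within si-SMaRT, the replicates differed in step with GC content. From si-SMaRT 1 to si-SMaRT 2, log2(RPKM + 0.1) differed by 0.78 for Eef1e1 (43.5% GC in its exons), 0.14 for Eef1a1 (45.4%) and 0.17 for Eef1b2 (46.1%), and by -0.40 for Eef2k (51.0%), -0.27 for Eef1g (51.2%), -0.26 for Eef1d (53.1%) and -0.87 for Eef2 (56.9%). All members under 50% GC were thus higher in si-SMaRT 2 and all above it lower. Over all genes tested with a known GC content, the median of this difference ran from 0.72 where GC content was about 38.8% to -1.03 where it was about 61.3%. Between the si-SCR samples it ran from -0.13 to 0.16 over the same range. The ratio of Eef1a1 to Eef2 was highest in si-SMaRT 2.

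Removing this dependence from each sample brought the si-SMaRT replicates of most members closer. The difference for Eef2 went from -0.87 to -0.23, for Eef1e1 from 0.78 to 0.31, for Eef1d from -0.26 to 0.04, for Eef1g from -0.27 to -0.14, for Eef2k from -0.40 to -0.29 and for Eef1b2 from 0.17 to -0.11, while that of Eef1a1 went from 0.14 to -0.20. The log2 fold changes between groups were then -0.01 for Eef2, -0.11 for Eef1a1 and Eef1d, -0.27 for Eef1b2, -0.03 for Eef1e1, 0.07 for Eef1g and 0.54 for Eef2k. None of the 7 passed the test in this fit, in which 458 of 10456 genes did, and Eef2k had an unadjusted p of 0.0292 (adjusted p = 0.160 by limma).

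**Figure D5:**
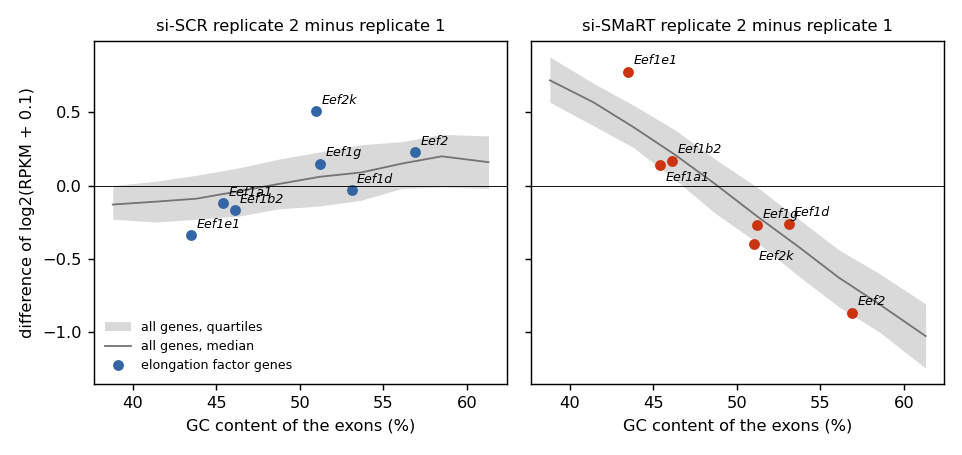
Difference of log2(RPKM + 0.1) between replicate 2 and replicate 1 against the GC content of the exons in percent, for si-SCR (left, blue) and si-SMaRT (right, red), with the median (line) and quartiles (grey band) over all genes tested in bins of GC content. In si-SMaRT the line falls from 0.72 to -1.03 and the members fall in the same direction, from Eef1e1 at 0.78 to Eef2 at -0.87. Eef1e1 lies above the grey band, which runs from 0.26 to 0.55 at about 43.8% GC.

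By the root mean square distance of mean-centred log2(RPKM + 0.1) over the 4 samples, the genes nearest to Eef1a1 among 6884 with a mean of at least 5 RPKM were Leprotl1 (0.00391), Nup205, a nuclear pore subunit (0.0110), and the row of Hspa8, a constitutive chaperone, with its small nucleolar RNAs (0.0124). Hspa8 was at 582, 527, 516 and 577 RPKM in the 4 samples in the order above. Among the other 5 members at that level, Eef1b2 was nearest to Eef1a1 at 0.0897, with 7.18% of genes closer, and Eef2 was farthest at 0.384, with 85.4% closer. Eef2k, with a mean under 5 RPKM, was not among the genes compared and stood at 0.394. Eef1d and Eef1g stood 0.137 apart, and Eef1e1 and Eef2 stood 0.630 apart. The dependence on GC content was left in these values. Eef1e1 (43.5%) and Eef2 (56.9%) have the lowest and highest GC content of the members with a row. The part of GC content in these distances was not tested.

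The proteins that work with or on these factors were read from 7 lists with 107 genes in all, 104 of them tested. None of the 104 passed the test, 3 had an unadjusted p under 0.05, and the groups did not overlap for 32 (30.8%), where this was so for 40.7% of all genes tested. Out of the 104 tested, 5 were higher without overlap and 27 lower without overlap in si-SMaRT, beside 20.2% and 20.4% of all genes tested. Among 9 tested partners of eEF1B and modifiers of eEF1A the median log2 fold change was 0.03, and the lowest p-values belonged to N6amt2, a lysine methyltransferase of eEF1A, and Gtpbp2, a GTPase related to elongation factors. N6amt2 was at 47.6 and 36.2 RPKM in si-SCR and at 26.9 and 33.0 RPKM in si-SMaRT (log2 fold change -0.48, adjusted p = 0.638 by limma), and Gtpbp2 had a log2 fold change of -0.48 (adjusted p = 0.677 by limma). Tpt1, which encodes the eEF1B-binding protein TCTP, was at 1156, 1031, 746 and 1032 RPKM and its groups overlapped with si-SMaRT 2 just above si-SCR 2.

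Diphthamide, the modified histidine of eEF2, is made by the Dph proteins. The 8 genes of this list had a median log2 fold change of -0.12, with Dph3, an electron carrier of the pathway, at -0.35 (adjusted p = 0.782 by limma) and Dph5, its methyltransferase, at -0.26 (adjusted p = 0.856 by limma). Neither passed the test.

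Kinases and calmodulins upstream of Eef2k had a median of -0.01 over 16 genes. Rps6ka1, which encodes a ribosomal S6 kinase that can phosphorylate eEF2 kinase, was at 1.69 and 1.79 RPKM in si-SCR and at 0.915 and 0.443 RPKM in si-SMaRT. Both si-SMaRT values were lower, with a log2 fold change of -1.31 and an interval from -2.07 to -0.55, and the adjusted p was 0.149 by limma, so it did not pass. Prkag1, a subunit of AMP-activated kinase, had a log2 fold change of -0.30 (adjusted p = 0.817 by limma). Mtor, at 6.35, 8.10, 10.6 and 6.98 RPKM, overlapped between the groups.

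Among 11 other elongation and rescue factors the median was 0.11, and Dohh and Dhps, the enzymes that make hypusine on eIF5A, were at -0.58 and -0.42 (adjusted p = 0.686 and 0.706 by limma). The 10 genes of the multisynthetase complex, to which the product of Eef1e1 belongs, had a median of -0.14, with Kars, the lysyl-tRNA synthetase, at -0.34 and the scaffold gene Aimp2 at -0.27 (adjusted p = 0.778 and 0.840 by limma). The 10 mitochondrial factors had a median of -0.17, with Mtif3, an initiation factor, at -0.50 and Mtrf1, a release factor, at -0.37 (adjusted p = 0.641 and 0.788 by limma). None of these 3 lists had a gene past the test.

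The 40 initiation factors had a median of -0.03. Pabpc1, the cytoplasmic poly(A)-binding protein, was at 34.5 and 35.0 RPKM in si-SCR and at 53.2 and 60.9 RPKM in si-SMaRT (log2 fold change 0.71, adjusted p = 0.342 by limma). Eif4ebp1, an inhibitor of cap-dependent initiation, was at 147 and 125 RPKM in si-SCR and at 99.1 and 84.2 RPKM in si-SMaRT (log2 fold change -0.57, adjusted p = 0.543 by limma). Both had groups that did not overlap, and neither passed.

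The state of differentiation is given beside these values because isoform genes of this family are known to follow it. Of 22 genes of muscle isoforms and other mature muscle genes, 21 had a log2 fold change below 0, as did 47.7% of all genes tested, and the median was -0.97. The paper, by a test on read counts, reports muscle contraction among the terms enriched in genes lower after depletion. Among the 22, the groups did not overlap for 18 lower and 1 higher in si-SMaRT, beside 20.4% and 20.2% of all genes tested. Of these 22, 1 passed the test, beside 0.505% of all genes tested: Cox7a1, the muscle isoform of a cytochrome oxidase subunit, was lower in si-SMaRT, at 17.2 and 13.8 RPKM in si-SCR and 5.60 and 6.91 RPKM in si-SMaRT (log2 fold change -1.29, adjusted p = 0.0454 by limma), and Tnnt1, a troponin T, followed at -1.21 (adjusted p = 0.0599 by limma). Of the 9 muscle cell markers tested 0 passed, with a median of -0.65, Ckm, the muscle creatine kinase, at -1.25 and Tnnt3 at -1.04 (adjusted p = 0.106 and 0.171 by limma). Some of these markers, Ckm and Tnnt3 among them, are also among the 22 genes, so the lists are not separate. All 15 proliferation genes had a log2 fold change above 0 and none passed, with a median of 0.31, Rrm2 at 0.54 and Aurkb at 0.46 (adjusted p = 0.561 and 0.656 by limma). The part of these in the values of the elongation factors was not tested.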

How the data were processed

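The elongation factor genes and all gene lists were chosen with earlier results of these data known. The authors trimmed reads of total RNA (Trimmomatic), removed rRNA and tRNA reads, aligned to GRCm38 (TopHat2), counted with htseq-count, removed genes of low CPM and deposited RPKM values made with edgeR after TMM normalization, so genes under that limit have no row. The deposited peaks hold a p-value that the authors computed with Piranha in bins of 200 bases, with the input as a covariate for the LacZ peaks. For the lnc-SMaRT peaks the authors describe calls against the input and against LacZ, and which of these the deposited list holds is not given in the sources used here. Here the groups were compared by limma (version 3.58.1, R 4.3.3; moderated test with a trended prior variance) after RPKM values had been increased by 0.1 and log2-transformed, leaving out genes whose mean was under 0.5 RPKM. P-values were adjusted by Benjamini-Hochberg, and the procedure was checked on simulated data. Those had the same spread for all genes, taken from the si-SCR samples, and no trend with GC content. The check therefore does not cover the wider spread between the si-SMaRT samples. A fold change on this scale understates that of low genes. Reads were recovered from the RPKM steps for all 11642 rows (tolerance 0.02 reads), for 6222 with the length of GENCODE M21 and otherwise with the smallest length that gives whole reads, which is a lower limit. The test was repeated with other pseudocounts, filters, scaling, without the trend, with a replicate block, GC content removed by loess (span 0.3, 94.3% of tested genes), voom on those reads, and each sample left out. Named were all members and their peaks, the 3 genes most like Eef1a1, and from each list the genes past the threshold or, where fewer than 2 passed, the 2 with the lowest p. Tpt1, Mtor, Myog, Cd68 and Ttn were named outside this rule after their values were seen. Peaks were compared with bedtools 2.31.1.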

Additional observations from a re-analysis of the deposited data

How the results depend on the processing

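None of the 7 elongation factor genes passed the threshold in any of the 14 alternatives, where the lowest adjusted p over them was 0.0511 by limma, for Eef2k without si-SMaRT 2. The 56 genes called of all tested became 23 with quantile normalization, 104 with voom on recovered reads, 458 with the dependence on GC content removed and from 24 (without si-SCR 1) to 2908 (without si-SMaRT 1) when 1 sample was left out, where the lone sample is assumed to vary like the other group; the cause was not tested. Without si-SCR 2 the number was 30 and without si-SMaRT 2 it was 941. With the replicate block 96 genes were called, 0 of them elongation factor genes. Same-numbered samples deviated in opposite directions (correlation -0.36, and -0.20 with the dependence on GC content removed). The opposite trends of si-SCR and si-SMaRT with GC content enter the first value, so it cannot decide whether cultures were paired. The paper does not say outright whether they were, and the numbers were not taken to pair the samples. A crossed replicate pairing, chosen after seeing the data, called 487 genes and 0 elongation factor genes.

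Of 97 values of single elongation factor genes under the alternatives, 86 kept their direction. This count takes in alternatives that cannot alter the log2 fold change of a gene in this balanced design. They are the fit without the trend, the replicate block, the crossed pairing and the changes of filter. Values under these were bound to keep their direction and do not measure stability. With quantile normalization the log2 fold change became 0.48 for Eef1a1, 0.03 for Eef1b2 and 0.12 for Eef2, and with the dependence on GC content removed it became -0.03 for Eef1e1. With 1 sample left out it ran from -0.08 to 0.05 for Eef1a1, from -0.30 to 0.48 for Eef1e1, from -0.09 to 0.17 for Eef1g and from -0.60 to 0.27 for Eef2. Eef1d stayed below 0 and Eef2k above 0 in all alternatives run, Eef2k being left out by the filter at a mean of 5 RPKM. The 5 peaks overlapped 0 LacZ peaks at an overlap of at least 50% or on either strand, and none of the 5 had a p under 0.001, so that limit gave no value. The alternatives planned for Eef1a2 as a percent of Eef1a1 plus Eef1a2 were not run, since no row analysed here names Eef1a2.

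Of the 7 genes Eef2k had the fewest reads, at least 204 in si-SCR 1, and its replicates differed by 1.44 times in si-SCR, which is more than the counting error of those reads.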
